A study of Mus musculus with 2 samples.

Results

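The Krüppel-like factors of fat are 10 transcription factor genes, Klf2, Klf3, Klf4, Klf5, Klf6, Klf7, Klf10, Klf11, Klf13 and Klf15, which were taken by symbol from the 37315 genes listed in both libraries because of known roles in fat cell formation and metabolism. White adipose tissue (inguinal, per the series title) came from male C57BL/6 mice, 23 weeks old and obese from a high-fat diet. The groups were entacapone-treated and vehicle-treated mice, and each group is 1 poly(A) RNA-seq library. Entacapone is an inhibitor of catechol-O-methyltransferase given in Parkinson disease, and it also inhibits the RNA demethylase FTO. The sources used here do not state the dose, how long it was given, or how many mice were pooled. The entacapone library held 12979673 counted reads and the vehicle library 13620056. Every difference below is therefore one between 2 libraries, with no replicate check. Each ratio is entacapone over vehicle with an exact 95% counting interval, which leaves out variation between mice, dissections and library preparations.

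Krüppel-like factors bind GC-rich and CACCC-type DNA elements through zinc fingers at the C terminus, while their differing N termini recruit activators or repressors. In developing fat cells they act in a relay with the C/EBP factors around the master regulator PPARG: some members promote differentiation and others hold precursors back. Several members are also rapidly induced by growth factors, shear stress, glucocorticoids or the circadian clock, and most are made by endothelial, immune and muscle cells as well as by adipocytes.

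Of the 10 factors, 9 reached a mean of 1 CPM (read counts scaled to library size), and Klf5 did not. Klf15, Klf2 and Klf6 were the factors with the largest ratios, at 1.91, 1.74 and 1.57, and Klf13 and Klf7 were higher by less. Klf10 was lower in the entacapone library, at a ratio of 0.795. Klf3, Klf4 and Klf11 had intervals that held 1. Thus 5 of the 9 measured factors were higher beyond counting error, against 20.2% of the 13361 measured genes, and 1 was lower, against 21.1%. A gene with more reads reaches such a call at a smaller ratio. The 9 factors had means from 21.5 to 156 CPM, while measured genes start at 1 CPM, so these shares are not matched for depth. At a size of 1.5-fold with the interval excluding 1, 3 factors were higher, where 4.16% of measured genes were, and 0 were lower, where 7.9% were. None reached 2-fold in either direction, the size reached by 1.66% of genes upward and 3.5% downward. The median log2 ratio of the 9 factors was 0.20, and that of all measured genes was 0.00. In whole tissue, a change in the number of cells of a type and a change in RNA per cell cannot be told apart.

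**Figure D1:**
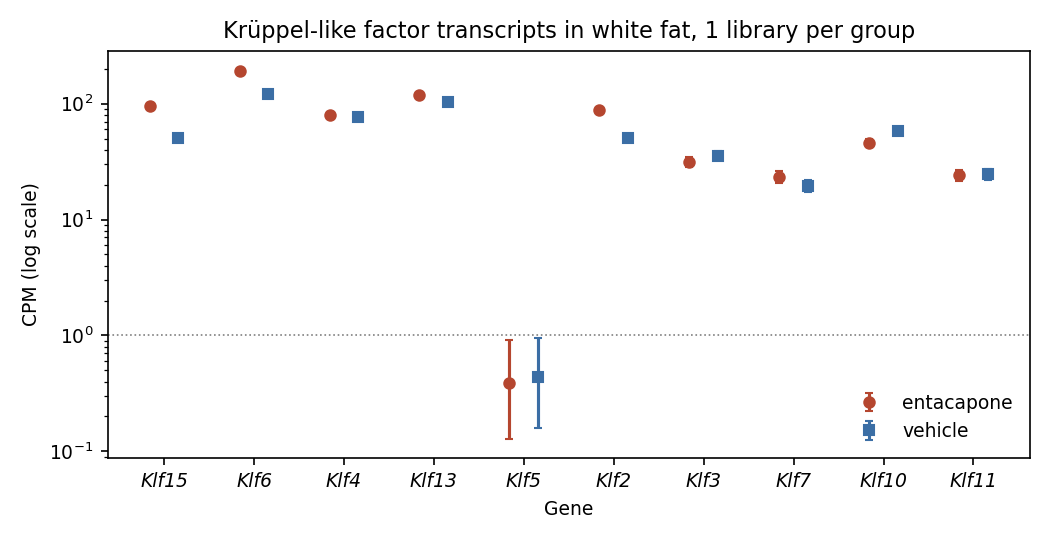
CPM on a log axis for each of the 10 factors in the entacapone library (circles, left of each pair) and the vehicle library (squares), with exact 95% Poisson intervals that cover counting error only. Klf15, Klf6 and Klf2 lie clearly higher in the entacapone library, Klf10 lies lower, and Klf5 stays under the dotted line at 1 CPM in both.

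The 300-base RefSeq promoter windows (GRCm38.p6, 250 bases before the gene start and 50 after it) are given for the 3 factors higher by at least 1.5-fold and for Klf4, which lay within counting error, so that factors that differed and one that did not can be read side by side. Capitals mark the E-box CACGTG, which clock and MYC-type factors bind, and the MEF2 consensus, an element known to drive Klf2 in endothelium. All are printed 5′ to 3′ on the gene's strand.
Klf15 (chr6:90462326-90462625, plus strand): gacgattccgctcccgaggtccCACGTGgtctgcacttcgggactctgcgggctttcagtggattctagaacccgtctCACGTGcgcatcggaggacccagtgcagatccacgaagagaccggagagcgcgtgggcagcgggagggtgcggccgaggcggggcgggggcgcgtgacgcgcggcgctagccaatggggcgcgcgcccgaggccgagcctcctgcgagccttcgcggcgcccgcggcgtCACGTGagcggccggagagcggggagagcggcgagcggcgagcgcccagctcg
Klf2 (chr8:72318812-72319111, plus strand): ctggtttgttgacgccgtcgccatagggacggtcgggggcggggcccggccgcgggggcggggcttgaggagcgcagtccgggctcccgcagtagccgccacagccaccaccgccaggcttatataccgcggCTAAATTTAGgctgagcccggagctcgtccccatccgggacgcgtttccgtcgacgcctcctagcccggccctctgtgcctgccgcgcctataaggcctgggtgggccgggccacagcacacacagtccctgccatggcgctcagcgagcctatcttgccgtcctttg
Klf6 (chr13:5861239-5861538, plus strand): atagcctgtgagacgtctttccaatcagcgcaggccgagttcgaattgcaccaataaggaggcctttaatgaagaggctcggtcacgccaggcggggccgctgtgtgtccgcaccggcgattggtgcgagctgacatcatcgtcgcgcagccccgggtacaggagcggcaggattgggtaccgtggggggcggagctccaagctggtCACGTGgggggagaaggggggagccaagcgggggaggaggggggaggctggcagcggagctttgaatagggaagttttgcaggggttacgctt
Klf4 (chr4:55532426-55532725, minus strand): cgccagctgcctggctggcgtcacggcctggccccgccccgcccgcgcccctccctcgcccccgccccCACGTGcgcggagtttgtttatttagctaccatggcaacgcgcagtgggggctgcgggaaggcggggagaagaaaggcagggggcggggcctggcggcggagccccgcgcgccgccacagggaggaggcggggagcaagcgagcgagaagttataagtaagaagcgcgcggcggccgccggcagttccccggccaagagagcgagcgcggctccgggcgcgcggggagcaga

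The windows of 8 of the 10 factors were searched, those of Klf5 and Klf10 being not analysed here. The Klf15 window had 3 E-boxes, whose first bases lay at -228, -172 and -3 from the gene start (counted as position 0). All positions are from the RefSeq start, which for some genes, such as Klf2, Klf7 and Klf11, differs from the GENCODE coordinates printed below. The Klf7 window, 64121340 to 64121639 on chromosome 1, does not include its GENCODE start at 64122282 on the minus strand. One E-box each lay in the windows of Klf6 (-43), Klf4 (-182) and Klf11 (-214). Of 32851 mouse promoter windows of this length, 7.15% held at least 1 E-box and 0.0883% held 3 or more. The MEF2 consensus, searched on both strands like every motif here, matched only the Klf2 window among the 8, at -118, and 3.19% of all windows. The GC box GGGCGG, itself of the kind these factors and SP1 bind, was in all 8 windows, from 1 copy in Klf6, Klf7 and Klf15 to 6 in Klf3, and in 35.7% of all windows. CACCC was in 5 of the 8 and in 57.5% of all windows. The glucocorticoid receptor half-site AGAACA (19.0% of all windows) and the CArG box of early response genes (1.63%) matched none of the 8. These windows were rich in G and C, from 58.3% in Klf7 to 77.7% in Klf11, against a median of 52.7% over all windows. E-boxes occurred in windows of factors that were higher (Klf15, Klf6) and of factors within counting error (Klf4, Klf11). They were absent from other higher factors (Klf2, Klf7, Klf13) and from Klf3, which was within counting error. Whether any motif contributed to the ratios was not tested.

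Among the factors that promote fat cell formation, Klf15 had the largest ratio. Klf15 (ENSMUSG00000030087, chromosome 6, 90462576 to 90475238, plus strand, GRCm38) activates the insulin-responsive glucose transporter gene Slc2a4 in mouse adipocytes and drives amino acid breakdown in liver and muscle. It had 1229 reads in the entacapone library and 694 in the vehicle library, or 96.0 CPM with entacapone against 50.2 CPM with vehicle. The log2 ratio was 0.93 (0.80 to 1.07), with a lower bound of 1.74-fold. Klf6 (chromosome 13, 5861482 to 5870394), which represses the preadipocyte gene Dlk1 in mouse cells, had the most reads of all 10 factors. It stood at 190.4 CPM (2437 reads) in the entacapone library and at 122 CPM (1679 reads) in the vehicle library, a log2 ratio of 0.65 (0.56 to 0.74). The intervals of Klf15 and Klf6 did not overlap.

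Klf13 (chromosome 7, 63886351 to 63938915), known from pig cells as an early activator of PPARG, was at 118 CPM (1506 reads) with entacapone and 103 CPM (1416 reads) with vehicle. That small difference lay beyond counting error, at a log2 ratio of 0.20 (0.09 to 0.30). Klf4 (chromosome 4, 55527143 to 55532466) switches on Cebpb together with Egr2 in mouse 3T3-L1 precursor cells. It was close to level, at 79.8 CPM (1021 reads) with entacapone against 76.7 CPM (1060 reads) with vehicle, and its log2 interval ran from -0.07 to 0.18. As a ratio, that interval ran from 0.953 to 1.13.

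Klf5 (chromosome 14, 99298691 to 99315036), an activator of Pparg in mouse precursors that C/EBP factors induce, had only 5 entacapone and 6 vehicle reads. These correspond to 0.391 CPM with entacapone and 0.434 CPM with vehicle. At this depth the ratio interval ran from 0.217 to 3.54, and a difference within that range was not detectable at this depth. Klf5 is also a gene of epithelium, whose markers were higher in the entacapone library, as given further on.

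The factors known to hold precursors back differed among themselves. Klf2 (chromosome 8, 72319033 to 72321656), which represses Pparg in mouse preadipocytes and keeps endothelium quiescent, had 1118 entacapone reads and 695 vehicle reads. It stood at 87.4 CPM in the entacapone library against 50.3 CPM in the vehicle library, a log2 ratio of 0.80 (0.66 to 0.93). The interval of Klf4, a close relative that shares roles in endothelium, did not overlap that of Klf2. Klf3 (chromosome 5, 64803388 to 64832901), which represses Cebpa in mouse cells with the corepressor CtBP, was at 31.2 CPM (399 reads) with entacapone against 35.5 CPM (491 reads) with vehicle. Its log2 ratio of -0.19 had an interval from -0.38 to 0.004, and it was lower beyond counting error with total counts (-0.23) and with DESeq2 size factors (-0.21). Klf7 (chromosome 1, 64029447 to 64122282), an inhibitor of fat cell formation in human cells, was at 23.3 CPM (298 reads) with entacapone against 19.6 CPM (271 reads) with vehicle. Its log2 ratio of 0.25 (0.005 to 0.49) was beyond counting error, and no longer so with total counts (0.21) or DESeq2 size factors (0.23).

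The TGF-beta-inducible factors Klf10 and Klf11, repressors that work with the SIN3A corepressor, were not higher in the entacapone library. Klf10 (chromosome 15, 38291463 to 38300706), also an output gene of the circadian clock, had 589 entacapone reads and 800 vehicle reads. It stood at 46.0 CPM with entacapone against 57.9 CPM with vehicle, a log2 ratio of -0.33 (-0.49 to -0.18). Klf11 (chromosome 12, 24651274 to 24662789), a partner of PPARG in human brown-like adipocytes, stood at 24.1 CPM (308 reads) with entacapone against 24.6 CPM (340 reads) with vehicle. Its interval held no difference (-0.03, -0.26 to 0.19) and overlapped that of Klf10.

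**Figure D2:**
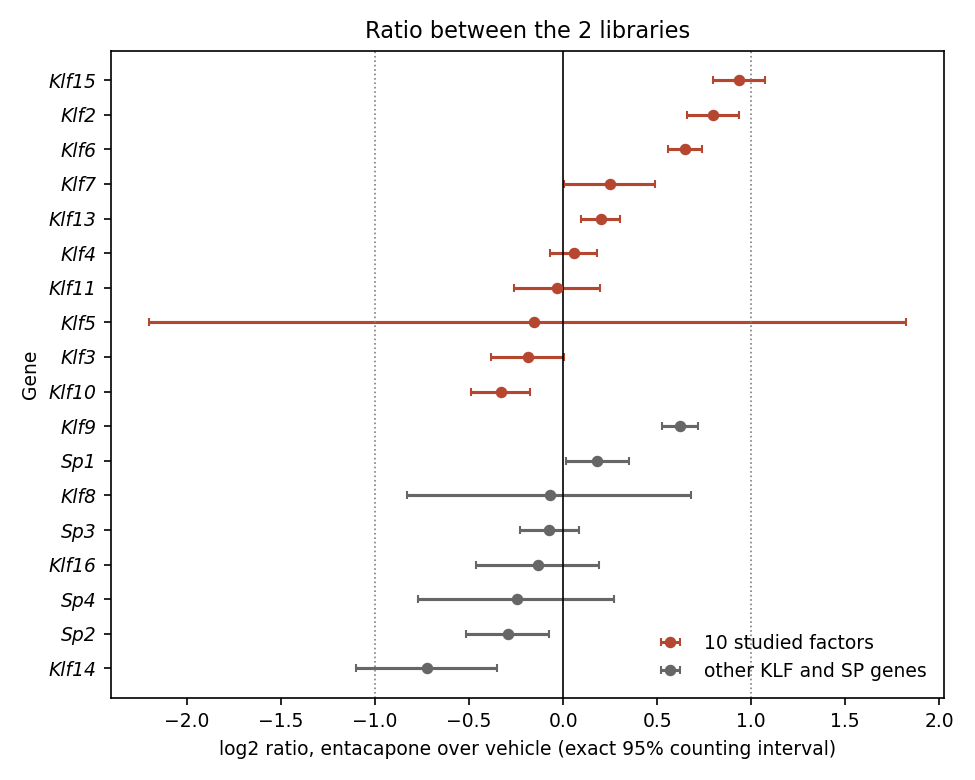
Log2 ratio, entacapone over vehicle, with exact 95% counting intervals, for the 10 factors (red) and the 8 measured genes among other KLF and SP family members (grey); dotted lines mark 2-fold. Klf15, Klf2, Klf6 and Klf9 are highest, from 0.93 down to 0.62, and Klf14 is lowest at -0.72. The interval of Klf15 overlaps neither that of Klf6 nor that of Klf9.

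Levels of different genes were set side by side per kilobase of merged exons. In the entacapone library Klf2 was highest at 47.3 CPM per kilobase, followed by Klf6 (43.4), Klf15 (34.4), Klf4 (26.2), Klf13 (15.6), Klf10 (11.0), Klf11 (5.55), Klf7 (2.86), Klf3 (2.77) and Klf5 (0.0751). In the vehicle library Klf6 was highest at 27.7 CPM per kilobase, followed by Klf2 (27.2), Klf4 (25.2), Klf15 (18.0), Klf10 (13.9), Klf13 (13.6), Klf11 (5.67), Klf3 (3.16), Klf7 (2.41) and Klf5 (0.0835). Klf15 therefore stood above Klf4 with entacapone and below it with vehicle, and the Poisson intervals of these 2 genes were apart in each library. Klf13 and Klf10 were apart with entacapone and overlapped with vehicle. Klf2 overlapped Klf6 in both libraries, both overlapped Klf4 in the vehicle library, and Klf7 overlapped Klf3 in the entacapone library. Some of these overlaps depend on the length used. By longest transcript in the vehicle library, Klf10 (19.0) and Klf13 (16.0) were apart, as were Klf6 (28.8) and Klf4 (25.3). Klf15 (20.2) overlapped Klf10 there. By that length, Klf7 (3.04) and Klf3 (5.97) were apart in the entacapone library. The place of Klf3 depends on the length used: by its longest transcript its levels were 5.97 and 6.81 CPM per kilobase in the entacapone and vehicle libraries, with intervals that overlapped those of Klf11 (5.89 with entacapone and 6.02 with vehicle) in both.

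**Figure D3:**
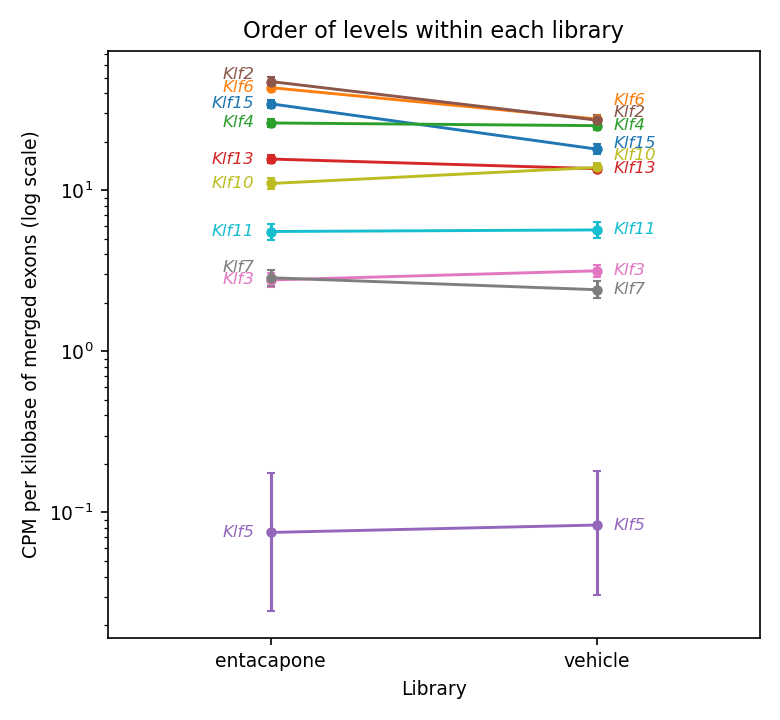
CPM per kilobase of merged exons on a log axis, with the entacapone library on the left and the vehicle library on the right, and 1 line per gene; bars are exact 95% Poisson intervals. The lines of Klf15 and Klf4 cross, Klf15 being at 34.4 with entacapone and 18.0 with vehicle and Klf4 at 26.2 with entacapone and 25.2 with vehicle.

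The kit does not mark strand, so a gene on the opposite strand can add reads to a factor. Klf7 shares 3196 exonic bases with the long noncoding gene Gm26649 and Klf3 shares 404 with Gm20033, both on the other strand and not analysed here. Read counts were at hand for a pair of overlapping genes. Gm13748 at Klf7, which shares 4 exonic bases, had 1 entacapone and 0 vehicle reads, and E030018B13Rik, within an intron of Klf13, had 3 entacapone and 0 vehicle reads. C230096K16Rik at Klf3, Mir6899 at Klf7 and Gm27252 at Klf13 share no exonic base with these factors and were not analysed here. The other 7 factors overlapped no annotated gene.

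Beyond these 10, the family list held 16 genes, of which 8 were measured, with 2 higher and 2 lower beyond counting error, against 20.2% and 21.1% of all measured genes. Klf9, a glucocorticoid-inducible activator of Pparg in mouse cells, was at 167 CPM with entacapone against 109 CPM with vehicle, a log2 ratio of 0.62 (0.52 to 0.72) that overlapped those of Klf6 and Klf2. Sp1, the general GC box activator, was at 46.4 CPM with entacapone against 40.9 CPM with vehicle (0.18, 0.01 to 0.35), a call lost with total counts and with DESeq2 size factors. Klf14, a regulator of fat metabolism known from human fat distribution genetics, was at 7.50 CPM with entacapone against 12.4 CPM with vehicle (-0.72, -1.10 to -0.35), and Sp2 was at 23.7 CPM with entacapone against 29.0 CPM with vehicle (-0.29, -0.51 to -0.08). Of the unmeasured genes, Klf1, the red cell factor, had 2 entacapone and 4 vehicle reads.

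Counts of the gene lists that follow stand against the same 20.2% higher and 21.1% lower over all measured genes, likewise not matched for depth. Genes around these factors in fat cell formation went both ways, with 5 of 14 measured higher and 5 lower. Pparg was lower at 130 CPM with entacapone against 162 CPM with vehicle (log2 -0.32, -0.41 to -0.23), and Cebpa, the target of KLF3, was lower at 913 CPM with entacapone against 1194 CPM with vehicle (-0.39, -0.42 to -0.35). Srebf1, the lipogenic factor, was lowest (-0.72), and Cebpd, which acts upstream of Klf5, was highest at 96.3 CPM with entacapone against 41.7 CPM with vehicle (1.21, 1.06 to 1.35). Cebpb was at -0.14 (-0.25 to -0.03) and Egr2, the partner of KLF4, at 0.05 (-0.54 to 0.64). Slc2a4, the KLF15 target, was higher at 216 CPM with entacapone against 185 CPM with vehicle (0.22, 0.15 to 0.30), as was Fabp4 (0.25). Dlk1, the KLF6 target, had 7 entacapone and 10 vehicle reads, too few to compare.

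Enzymes of amino acid and glucose metabolism linked to KLF15 were higher beyond counting error in 8 and lower in 3 of 12, with a median log2 ratio of 0.27. The branched-chain ketoacid dehydrogenase subunit Bckdha (0.54, 0.47 to 0.61) and the alanine aminotransferase Gpt2 (0.49, 0.41 to 0.56) were highest. Prodh, the proline dehydrogenase, stood at 63.4 CPM with entacapone against 46.6 CPM with vehicle, and Bcat2, the branched-chain aminotransferase, at 196 CPM with entacapone against 149 CPM with vehicle. Lowest were Aass, a lysine-degrading enzyme abundant in liver with 5 entacapone and 24 vehicle reads, and the acetyl-CoA synthetase Acss2 (-0.41, -0.51 to -0.32). The other alanine aminotransferase gene of the list, Gpt, was lower at 267 CPM with entacapone against 296 CPM with vehicle (-0.15, -0.21 to -0.08). Pck1 was level at -0.01.

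Of 17 measured endothelial genes, 1 had an interval that overlapped that of Klf2. This was the VEGF receptor gene Flt1, at 86.8 CPM with entacapone against 58.7 CPM with vehicle (0.56, 0.43 to 0.70). The share of all measured genes that overlapped Klf2 was not computed, so this count shows nothing particular to endothelium. Of 7 measured endothelial targets of KLF2 and KLF4, 1 was higher and 2 lower beyond counting error (median -0.09), the higher one (Kdr) not with total counts. Nos3, the endothelial nitric oxide synthase, was at 44.5 CPM with entacapone against 50.3 CPM with vehicle (-0.18, -0.34 to -0.02) and thrombomodulin (Thbd) at 75.2 CPM with entacapone against 72.3 CPM with vehicle (0.06, -0.07 to 0.19). Kdr, another VEGF receptor, was highest of these (0.14). Tek, the angiopoietin receptor (-0.34, -0.51 to -0.17), and Edn1, which encodes endothelin (-0.21, -0.69 to 0.27), were lowest. Edn1 was within counting error. The 10 endothelial markers summed to 1340 CPM in the entacapone library and 1322 CPM in the vehicle library. Their median log2 ratio was 0.00, as was that of all measured genes, and Klf2 was at 0.80.

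Cofactors were higher beyond counting error in 9 of 15 and lower in 1, by small amounts (median 0.18). With total counts, 6 of the 15 were higher. Fhl3, which works with KLF3 and is a muscle-type gene, was highest at 25.9 CPM with entacapone against 14.0 CPM with vehicle (0.88, 0.62 to 1.14). Wwp1, a ubiquitin ligase for KLF2 and KLF5, was lowest at 87.5 CPM with entacapone against 106 CPM with vehicle (-0.28), with Hdac2 next (0.02). The KLF3 partners Ctbp1 (0.03) and Ctbp2 (0.16) were within counting error, and Sin3a was at 0.19 (0.003 to 0.37), not beyond counting error with total counts or DESeq2 size factors.

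Early response genes were higher in 12 and lower in 1 of 18 (median 0.40). Fosb (2.33, 1.62 to 3.10) and Fosl2 (1.07) were highest, and Atf3 (-1.36, -1.79 to -0.95) and Fos (-0.10, -0.34 to 0.14) lowest. Klf2, Klf4, Klf6 and Klf10 are early response genes of the same kind, and their log2 ratios were 0.80, 0.06, 0.65 and -0.33. Glucocorticoid-responsive genes, a class that includes Klf9 and Klf15, were higher in 11 and lower in 2 of 13 (median 0.60). Fkbp5 stood at 430.1 CPM with entacapone against 257 CPM with vehicle and Tsc22d3 at 567 CPM with entacapone against 334 CPM with vehicle. The metallothioneins Mt2 (1.47) and Mt1 (1.36) were highest and Ddit4 (-0.48) and the receptor gene Nr3c1 (-0.16) lowest.

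Clock genes were split, with 7 of 16 measured higher and 5 lower (median 0.07). Npas2 (1.20) and Per1 (0.86, 0.75 to 0.97) were highest, and Bhlhe40 (-1.44) and Dbp (-0.83) lowest. Genes of the TGF-beta pathway, which induces Klf10, were lower in 5 and higher in 2 of 14 (median -0.10). Skil (-0.91, -1.15 to -0.69), a feedback inhibitor, was lowest, at 18.2 CPM with entacapone against 34.3 CPM with vehicle, and Smad7 (-0.68), likewise a feedback inhibitor, was also lower. The ligand gene Tgfb2 was near the bottom but within counting error, with 15 entacapone and 26 vehicle reads, and Ccn2 (0.38) and Tgfb3 (0.33) were highest.

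**Figure D4:**
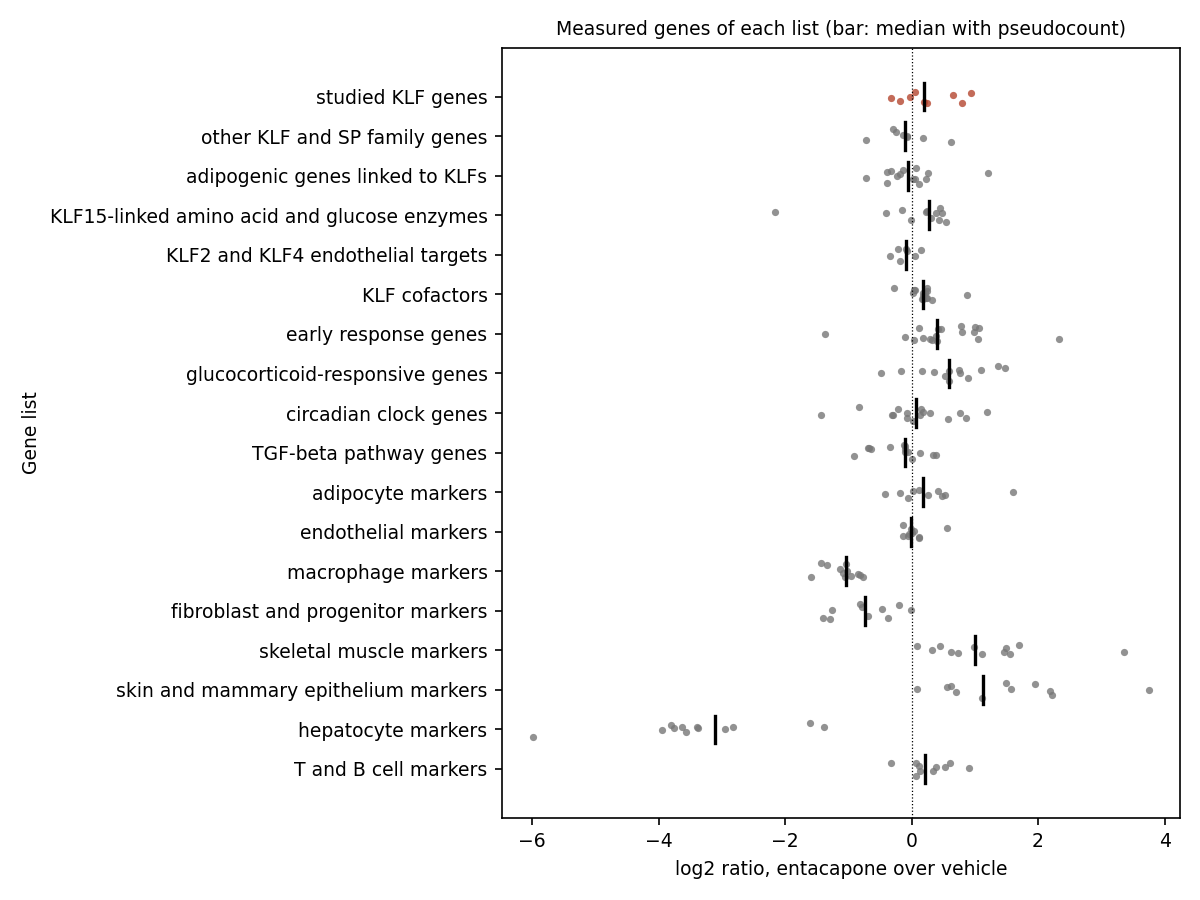
Log2 ratio, entacapone over vehicle, of the measured genes in each list (points, jittered vertically), with the list's median as a black bar. The 9 measured factors (red) lie between -0.33 and 0.93, with a median of 0.20.

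Markers showed fat in both libraries, with 10 adipocyte genes summing to 62655 CPM in the entacapone library and 52149 CPM in the vehicle library. These adipocyte genes went both ways, with 7 higher and 3 lower beyond counting error. With total counts or DESeq2 size factors, 6 were higher. Other tissues differed between the libraries. Skeletal muscle markers, from a tissue that also makes Klf15, were higher in 11 of 12 and summed to 2096 CPM with entacapone against 1336 CPM with vehicle, and skin and mammary epithelium markers were higher in 8 of 11 and summed to 100.0 CPM with entacapone against 30.7 CPM with vehicle. Macrophage markers were lower in 12 of 12 and summed to 914 CPM with entacapone against 1836 CPM with vehicle. Fibroblast and progenitor markers were lower in 9 of 10 and summed to 5118 CPM with entacapone against 8113 CPM with vehicle. Hepatocyte markers, from another tissue where KLF15 acts, were lower in 12 of 12. They summed to 97.8 CPM with entacapone against 435 CPM with vehicle. T and B cell markers were higher in 2 of 10, or 1 with total counts or DESeq2 size factors, and lower in 0. They summed to 56.2 CPM with entacapone against 46.2 CPM with vehicle. No marker was at 0 in either library. Whether these cells contributed to the ratios of Klf15, Klf6, Klf2 or Klf10 was not tested.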

How the data were processed

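Both deposited tables hold the authors' raw counts of reads, 1 row per Ensembl gene. The submitters' processing notes name TopHat2 2.1.1, HTSeq 0.6.0 and build mm10. The sources used here do not state the counting mode or the annotation release. The library kit in the labels' protocols does not mark strand. Of 37315 listed genes, 35533 were matched by identifier to GENCODE M21 (GRCm38, the assembly of mm10), and all stayed in the library sizes.

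Counts were scaled to CPM with edgeR 4.0.16 TMM factors (0.986 for entacapone, 1.01 for vehicle). Ratios are entacapone over vehicle. Exact 95% intervals were derived with scipy 1.17.1 from the Clopper-Pearson bounds on the fraction of a gene's reads that fell in the entacapone library, and cover counting error only. Genes were counted as measured at a mean of 1 CPM or more. List medians used a pseudocount of 0.5 CPM. Intervals and calls were tested on counts simulated with Poisson counting error only. That test cannot cover variation between mice or libraries. No replicate error could be had from single libraries, and no p-value was computed. Other scalings tried were DESeq2 1.42.0 size factors, plain totals and upper-quartile factors. A further one was TMM without the listed liver, muscle and epithelium markers and without mitochondrial genome genes.

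The 10 members, the lists and the rule for named genes were chosen with earlier results of these data known. The rule took all members, the 2 highest and 2 lowest measured genes of each list, and genes tied to a member's known role. Marker lists are given by counts and sums, Flt1 excepted. A gene that the rule took is not reported here. The last are Pparg, Cebpb, Egr2, Slc2a4, Dlk1, Nos3, Ctbp1, Ctbp2 and Sin3a. Further list genes (Fkbp5, Tsc22d3, Smad7, Prodh, Bcat2, Gpt, Pck1, Klf1, Flt1) were named after their values were seen.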

Additional observations from a re-analysis of the deposited data

How the results depend on the processing

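Another scaling moved every log2 ratio by between -0.04 and 0.01. Of 40 values (10 factors under 4 other scalings), 36 kept their direction and their side of counting error. The others were Klf7, which lost its call, and Klf3, which gained one, each with DESeq2 size factors and with total counts. The number of factors lower beyond counting error was then 2 in place of 1, under both of these scalings. With total counts, 5 clock genes were higher in place of 7, and 7 TGF-beta pathway genes lower in place of 5. Lowering the size for a call to 1.5-fold gave 3 factors in place of 0. The median log2 ratio of the measured factors ran from 0.16 with total counts to 0.21 with upper-quartile factors. Their mean log2 ratio was 0.26. With the longest transcript as length, 7 of 10 factors kept their place in the entacapone order and 8 in the vehicle order. Depth limits Klf5 above all. No paired analysis was possible because each group holds 1 library, and for the same reason no library could be left out.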
